A study of Mus musculus with 12 samples.

Results

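The 37 genes described here carry out or control glucose use in somatic cells and the response to low oxygen. They come from a list of names: genes of glucose uptake, the glycolytic steps, lactate handling and pyruvate dehydrogenase kinases, and genes of the hypoxia-inducible factors (HIFs) with several of their known targets. The list sets no condition on measured values, but it was chosen with earlier results of these data known. Shares of the 37 genes set beside those of all genes are therefore descriptions only. All 37 symbols were found among the 55536 gene identifiers of the count tables, and all 37 passed the filter on low counts. They were read in the epididymis of wild-type (WT) mice, in segments 1, 2 and 3 of ligated tissue (L1, L2, L3) and in the same segments of control, non-ligated tissue (C1, C2, C3). In ligated tissue a suture of 4-0 PDS had been tied around the efferent ducts, which bring sperm and fluid from the testis, where they reach the head of the epididymis. No other allele or agent is named for any group, and how long the ligation lasted is not stated in the labels. Polyadenylated RNA pooled from 2 mice made up a library, and each of the 6 groups had 2 such libraries, 1 of sequencing batch 3017 and 1 of batch 3097. Whether ligated and control pools shared mice is not given, so p-values measure the spread between pools.

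Glycolysis splits glucose into pyruvate, which lactate dehydrogenase can turn into lactate and the pyruvate dehydrogenase complex can pass into mitochondria. HIFs are transcription factors whose alpha subunits are marked for destruction by oxygen-using prolyl hydroxylases, and which raise many glycolytic genes when oxygen falls. The most proximal segment of the epididymis, called the initial segment in rodents, is known for a dense capillary bed and for depending on factors that arrive in the fluid from the testis.

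The libraries held 30.5 to 42.3 M counts, so 3 counts were worth 0.0709 to 0.0984 CPM, the count scaled to the size of its library, and the 37 genes took 0.365% to 0.534% of all counts. Levels below are CPM after TMM scaling; a pair of values gives batch 3017 and then batch 3097. Fold changes are on the log2 scale with their SE, and a gene is called at an adjusted p under 0.05 in edgeR's quasi-likelihood test over 19213 genes. The epithelial markers Cdh1, Epcam, Krt8, Krt18 and Cldn3 summed to 1808 to 2238 CPM in the 12 libraries, and the caput gene Gpx5 was abundant in each. Sperm markers summed to 0.392 to 0.700 CPM in ligated segment 1, against 10.3 to 13.1 CPM in control segment 1, and to 0.278 to 0.707 CPM in ligated segments 2 and 3, against 114 to 221 CPM in their controls. One library stood apart: control segment 2 of batch 3017 held 3319.6 CPM of Lcn8 and 1008 CPM of Cst8, which in controls mark segment 1, where the library of batch 3097 held 209.9 and 107 CPM. Counts, ligation effects and fold changes that use that library are also given without it below where they are called or move far.

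Control segment 1 lay outside the range of all other libraries, those of ligated segment 1 included, in 24 of these genes. In 19 of the 37 genes (51.4%) both control segment 1 libraries lay below all the other 10 libraries, a position found in 21.9% of all genes tested. In 5 genes (13.5%), Hk2, Pfkm, Aldoc, Epas1 and Egln3, they lay above all others, against 22.2% of all genes. The lactate genes, Pdk2 and Eno2 were among those low in control segment 1. The 37 genes took 0.479% and 0.471% of counts in ligated segment 1, against 0.366% and 0.365% in control segment 1.

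**Figure D1:**
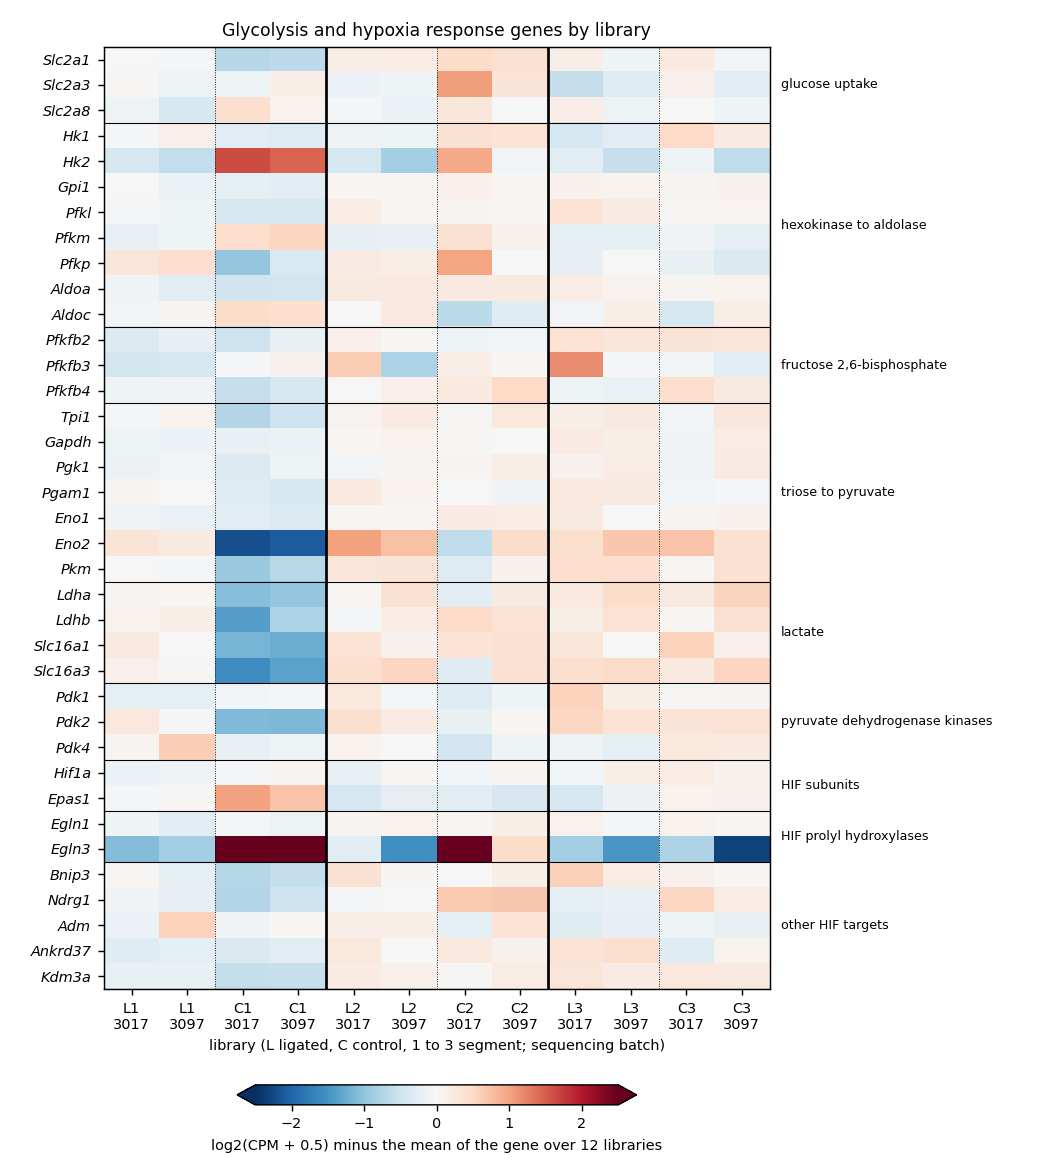
Each row is a gene and each column a library of the ligated (L) or control (C) segments 1 to 3; colour is log2(CPM + 0.5) minus the gene's mean over the 12 libraries, with values beyond 2.5 in either direction drawn in the end colour. The 2 columns of control segment 1 stand out, with 19 genes below all the other 10 libraries and 5 above them.

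The promoters of 4 genes that moved far in segment 1 are shown here, Hk2 and Egln3, which fell after ligation, and Ldha and Slc16a3, which rose, so that their HIF motif content can be seen beside their values. Each is 250 bases before to 50 bases after the RefSeq start (GRCm38.p6), 5′ to 3′ on the gene's strand. Capitals mark the HIF core, ACGTG or GCGTG, on either strand, and in Ldha also a match to the ETS core, CCGGAA, on the other strand. A match on the other strand is seen as its reverse complement, and a stretch that matches on both strands counts once for each. The regions are chr6:82774405-82774704, minus strand, for Hk2; chr12:54203825-54204124, minus strand, for Egln3; chr7:46845554-46845853, plus strand, for Ldha; and chr11:120948817-120949116, plus strand, for Slc16a3.
Hk2: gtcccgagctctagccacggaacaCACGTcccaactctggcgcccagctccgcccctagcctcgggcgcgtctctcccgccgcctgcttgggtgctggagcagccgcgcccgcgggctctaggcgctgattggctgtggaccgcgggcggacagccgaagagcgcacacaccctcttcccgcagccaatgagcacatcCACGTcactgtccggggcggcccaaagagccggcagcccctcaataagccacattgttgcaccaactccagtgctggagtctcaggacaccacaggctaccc
Egln3: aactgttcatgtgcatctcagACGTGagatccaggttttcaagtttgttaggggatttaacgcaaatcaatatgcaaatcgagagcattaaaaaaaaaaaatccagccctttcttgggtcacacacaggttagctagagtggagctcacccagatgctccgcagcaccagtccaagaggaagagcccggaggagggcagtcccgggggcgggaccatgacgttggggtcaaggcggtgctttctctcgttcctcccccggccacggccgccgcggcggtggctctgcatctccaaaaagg
Ldha: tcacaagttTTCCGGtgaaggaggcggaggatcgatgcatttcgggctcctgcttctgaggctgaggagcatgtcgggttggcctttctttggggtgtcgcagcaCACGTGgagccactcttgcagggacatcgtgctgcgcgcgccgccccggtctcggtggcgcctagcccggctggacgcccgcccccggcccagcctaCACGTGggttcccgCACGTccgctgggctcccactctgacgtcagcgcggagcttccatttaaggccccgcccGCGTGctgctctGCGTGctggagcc
Slc16a3: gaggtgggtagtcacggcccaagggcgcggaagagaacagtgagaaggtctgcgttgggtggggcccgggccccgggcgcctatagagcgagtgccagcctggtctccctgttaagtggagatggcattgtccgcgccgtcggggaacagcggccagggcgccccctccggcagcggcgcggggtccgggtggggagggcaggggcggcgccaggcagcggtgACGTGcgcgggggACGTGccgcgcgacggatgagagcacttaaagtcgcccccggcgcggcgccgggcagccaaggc

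Hk2 had 2 matches to ACGTG, Egln3 1, Slc16a3 2 and Ldha 5, and Ldha had 2 more to GCGTG. Among these 4 genes, both those that fell and those that rose thus carried the core. The promoters of Hk1, Gpi1, Aldoa, Tpi1, Eno2, Pkm and Kdm3a held neither form of it. All of these but Gpi1 were called higher in segment 1. Of the 37 genes 34 had a promoter in the RefSeq table, and 27 of the 34 held ACGTG or GCGTG, against 43.8% of 32851 promoters of the same length. ACGTG alone was in 17 of 34, against 19.6% of promoters, and GCGTG in 19 of 34, against 32.4%. The ETS core, bound by a factor family known to act in the initial segment, was in 4 of 34, against 14.9%. A match is a description of the letters and not a site in use. Epas1, Ndrg1 and Slc2a3 have no entry in that table.

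The first comparison asks what closing the efferent ducts did in segment 1, where the duct of the epididymis begins. Of the 37 genes, 24 (64.9%) were called, 18 higher and 6 lower, against a background of 48.7% of all genes tested. The median log2 fold change was 0.30 over the 37 genes and 0.03 over all genes. Calls that were also at least 2-fold numbered 9 (24.3%), near the 22.9% of all genes. By direction, 48.6% of the 37 genes rose, against 24.4% of all genes, and 16.2% fell, against 24.4%. All 24 had the same direction in both batches, and 16 of them stayed called whichever of the 12 libraries was left out. Leaving out the control library of batch 3017 lost the calls of Hk1, Pfkl, Pfkp, Aldoa, Aldoc, Pfkfb4, Bnip3 and Ndrg1. Fewer of all genes tested were called in that fit too. Scaling by library totals alone gave 27 calls, 22 higher and 5 lower; it moved the median of all genes to 0.24 and their split to 6505 higher and 3130 lower, where TMM scaling gave 4684 and 4679. In a tissue sample, fewer cells of a type and less RNA per cell cannot be told apart.

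RNA of the glucose transporters changed by gene. Slc2a1, which encodes the widely used glucose transporter GLUT1 (chromosome 4, 119108711 to 119137983), had 27.6 and 27.2 CPM in ligated segment 1, against 16.9 and 17.5 CPM in control segment 1. The groups did not overlap, and the rise of 0.67 ± 0.11 was called (adjusted p = 8.4e-04). Slc2a8, which encodes the intracellular transporter GLUT8, fell by 0.53 ± 0.09 (adjusted p = 0.0014). Slc2a3, which encodes the high-affinity transporter GLUT3, was not called at -0.08 ± 0.24 (adjusted p = 0.80), with 43.2 and 38.4 CPM in ligated tissue, against 38.6 and 47.3 CPM in controls. Per kb of exon, Slc2a1 made up 41.2% ± 2.45 of the 3 transporters' sum in ligated segment 1 and 26.0% ± 1.16 in control segment 1 (SD, n = 2 each).

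Of the 2 genes of hexokinase, which traps glucose as glucose 6-phosphate, Hk2 fell far and Hk1 rose by much less. Hk2, the inducible form (ENSMUSG00000000628, GRCm38 chromosome 6, 82725025 to 82774454), had 100.5 and 88.4 CPM in ligated segment 1, against 418 and 369.9 CPM in control segment 1. The groups lay far apart. The fall of 2.06 ± 0.19 on the log2 scale (adjusted p = 8.3e-05) stood beside -2.05 within batch 3017 and -2.06 within batch 3097. Hk1, the constitutive form (chromosome 10, 62268855 to 62379908), had 78.9 and 87.9 CPM after ligation, against 67.1 and 64.1 CPM in controls, a rise of 0.35 ± 0.10 (adjusted p = 0.019). The Hk1 values did not overlap, but the call was lost without either control library or without the ligated library of batch 3097 (adjusted p = 0.072, 0.11 and 0.15). Per kb, Hk1 took 38.2% ± 3.92 of the hexokinase pair's sum in ligated segment 1 and 10.4% ± 0.507 in control segment 1, where Hk2 made up the remaining 89.6%.

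Phosphofructokinase, which commits sugar to glycolysis, also changed its mix. Pfkm, the muscle-type subunit, fell by 0.65 ± 0.10 (adjusted p = 6.1e-04), while Pfkl, the liver-type subunit, rose by 0.33 ± 0.07 (adjusted p = 0.0051; 0.056 without the control library of batch 3017). Pfkp, the platelet-type subunit (chromosome 13, 6579768 to 6648777), had 17.8 and 19.3 CPM in ligated tissue, against 7.04 and 10.9 CPM in controls. Its rise of 1.05 ± 0.32 was called (adjusted p = 0.031), but it was lost without the filter on low counts (0.074) and without 9 of the 12 libraries, each left out in turn (up to 0.17). Per kb, Pfkm made up 30.5% ± 1.11 of the 3 subunits' sum in ligated segment 1 and 47.0% ± 0.975 in control segment 1. Of the aldolases, which split fructose 1,6-bisphosphate, Aldoa rose by 0.29 ± 0.10 (adjusted p = 0.032) and Aldoc fell by 0.45 ± 0.12 (adjusted p = 0.012). The Aldoa call was lost without either control library (0.19 and 0.086), the ligated library of batch 3017 (0.25) or either ligated segment 2 library (0.065 and 0.062). The Aldoc call was lost under library totals (0.11) or with either C1 of batch 3017 (0.15) or L1 of batch 3097 (0.094) left out. Gpi1, the isomerase between these steps, was not called at 0.17 ± 0.08 (adjusted p = 0.097).

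Of the 3 bifunctional enzymes that set fructose 2,6-bisphosphate, an activator of phosphofructokinase, Pfkfb4 alone was called, a rise of 0.41 ± 0.11 (adjusted p = 0.011), which was lost without the control or the ligated library of batch 3017 (0.10 and 0.070). Pfkfb2 and Pfkfb3 stood at 0.08 ± 0.11 and -0.51 ± 0.44 (adjusted p = 0.61 and 0.37).

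Among the 7 genes from triose phosphate to pyruvate, 4 rose and 3 were not called. Tpi1, triose phosphate isomerase, rose by 0.65 ± 0.09, Pgam1, phosphoglycerate mutase, by 0.41 ± 0.08, and Pkm, pyruvate kinase, by 0.79 ± 0.13 (adjusted p = 3.6e-04, 0.0020 and 8.8e-04). Eno2, the neuronal-type enolase, had few reads, 7 and 8 counts in the control libraries and 146 and 113 in the ligated ones. It averaged 3.28 ± 0.172 CPM in ligated segment 1 and 0.207 ± 0.0446 CPM in control segment 1 (SD, n = 2 each), and rose by 3.99 ± 0.48 (adjusted p = 1.6e-04). Eno1, the common enolase, still made up 98.2% of the enolase pair's sum per kb after ligation and was not called at 0.19 ± 0.08 (adjusted p = 0.087).

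Gapdh, often used as a reference gene, had 521 and 511 CPM in ligated segment 1, against 498 and 512 CPM in control segment 1. The groups overlapped, at 0.03 ± 0.10 (adjusted p = 0.81). Pgk1, phosphoglycerate kinase and a classic HIF target, had 122 and 129 CPM after ligation, against 106 and 124 CPM in controls. These groups overlapped too, at 0.13 ± 0.08 (adjusted p = 0.19). Reads of Pgk1, Pgam1, Gapdh and Eno1 are uncertain, since 51.7%, 33.9%, 20.9% and 20.4% of the 100-base windows of their transcripts also occur in other genes.

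All 4 lactate genes rose at least 2-fold in segment 1. Ldha, the muscle-type lactate dehydrogenase subunit (ENSMUSG00000063229, chromosome 7, 46841475 to 46855627), had 185 and 183 CPM in ligated segment 1, against 84.4 and 90.1 CPM in control segment 1 (1.08 ± 0.12, adjusted p = 1.0e-04). Ldhb, the heart-type subunit (chromosome 6, 142490249 to 142507957), had 265 and 277 CPM, against 95.9 and 144 CPM (1.20 ± 0.15, adjusted p = 1.8e-04). Both ligated libraries lay above both controls for each subunit, while the shares overlapped: Ldha made up 24.3% ± 0.751 of the pair's sum per kb in ligated segment 1 and 26.2% ± 4.65 in control segment 1 (SD, n = 2 each).

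Slc16a1, which encodes the lactate and pyruvate carrier MCT1 (chromosome 3, 104638668 to 104658462), had 37.7 and 32.0 CPM in ligated segment 1, against 14.0 and 13.2 CPM in control segment 1 (1.35 ± 0.12, adjusted p = 3.5e-05). Slc16a3, which encodes the lactate exporter MCT4 and is a HIF target (ENSMUSG00000025161, chromosome 11, 120948480 to 120960868), had 13.6 and 12.6 CPM, against 3.91 and 4.59 CPM (1.64 ± 0.18, adjusted p = 1.0e-04). Within batches 3017 and 3097 its log2 ratios were 1.68 and 1.36. Again the groups lay apart, and the ligated values of both carriers fell among those of segments 2 and 3, which spanned 31.9 to 48.0 CPM for Slc16a1 and 9.98 to 18.3 CPM for Slc16a3.

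Of the pyruvate dehydrogenase kinases, which switch off entry of pyruvate into mitochondria, Pdk2 (chromosome 11, 95026258 to 95041354) had 210.1 and 169 CPM in ligated segment 1, against 80.5 and 79.7 CPM in control segment 1. The libraries did not overlap, and the rise was 1.24 ± 0.12 (adjusted p = 6.2e-05). Pdk1, the kinase best known as a HIF target, had 70.0 and 69.8 CPM after ligation, against 79.8 and 80.4 CPM in controls, and was not called at -0.20 ± 0.14 (adjusted p = 0.27). Pdk4, the kinase of fasting, was low, at 1.64 ± 0.571 CPM in ligated and 0.982 ± 0.0436 CPM in control tissue, and was not called (0.72 ± 0.31, adjusted p = 0.083). Per kb, Pdk1 made up 13.1% ± 1.69 of the 3 kinases' sum in ligated segment 1 and 28.7% ± 0.242 in control segment 1.

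**Figure D2:**
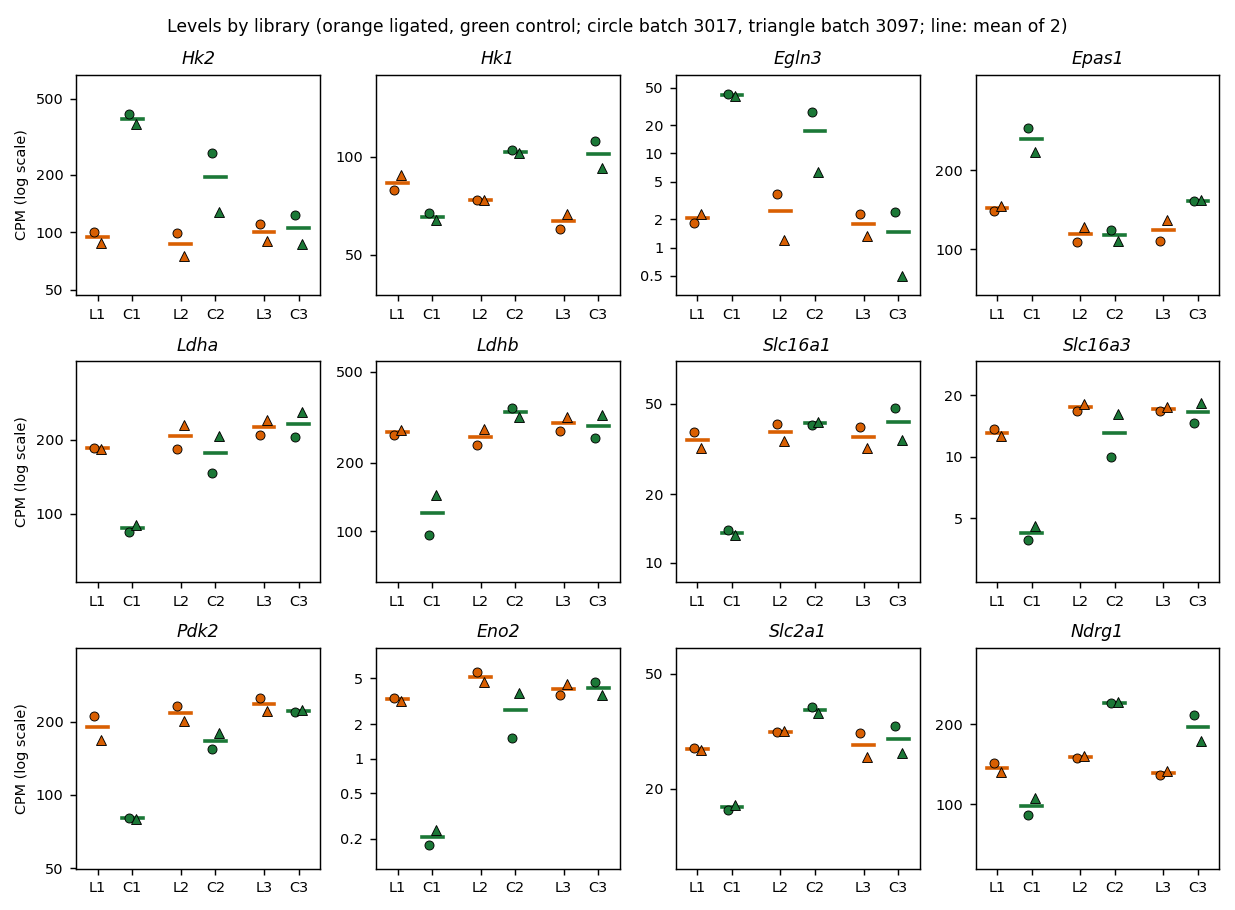
Levels of 12 genes in CPM on log axes, ligated left of control in each segment; circles are batch 3017, triangles batch 3097 and lines the mean of 2 libraries. In Ldha, Ldhb, Slc16a1, Slc16a3, Pdk2, Eno2 and Slc2a1 the control segment 1 libraries sit below all others, and in Hk2, Egln3 and Epas1 above them.

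Of the HIF alpha genes, 1 fell and 1 was not called in segment 1. Hif1a, the ubiquitous alpha subunit (chromosome 12, 73901375 to 73947530), had 75.3 and 77.0 CPM in ligated segment 1, against 82.1 and 87.1 CPM in control segment 1, and was not called (-0.15 ± 0.09, adjusted p = 0.18). Epas1, which encodes HIF-2 alpha, a subunit known to be strong in endothelium (ENSMUSG00000024140, chromosome 17, 86753700 to 86833410), had 139.8 and 146 CPM, against 290.4 and 236 CPM. Its groups did not overlap, and it fell by 0.88 ± 0.13 (adjusted p = 4.3e-04). The share of Epas1 in the sum of both alpha subunits per kb was 66.5% ± 0.373 in ligated and 76.5% ± 3.39 in control segment 1.

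Endothelial markers moved with Epas1. Of 8 such genes, 7 fell in segment 1, and their summed level was 34.1 to 47.0 CPM in ligated segment 1, against 117 to 121 CPM in control segment 1; none was at 0. In segment 2 the sums were 18.3 to 23.98 CPM after ligation, against 18.4 to 23.6 CPM in controls, and Epas1 was not called (0.01 ± 0.13, adjusted p = 0.95). In segment 3 they were 15.6 to 19.8 CPM, against 21.6 to 22.3 CPM, and Epas1 was again not called (-0.37 ± 0.13, adjusted p = 0.20). The part of endothelium in the Epas1 result was not tested. Other markers changed in segment 1 as well: all 5 smooth muscle markers rose, with sums of 430.1 to 550.05 CPM in ligated and 266 to 333 CPM in control tissue, as did 3 of 6 macrophage markers. Clear and narrow cell markers had 3 of 5 higher, with sums of 274 to 282 CPM in ligated and 158 to 191 CPM in control tissue. Principal cell markers had 4 of 6 lower, with sums of 43852 to 48631 CPM in ligated and 70614 to 87605 CPM in control tissue. Lcn5 of that list went the other way without being called, with 2112 and 2925 counts in control and 23370 and 13857 in ligated segment 1. Of 5 fibroblast markers 4 rose and 1, Pdgfra, fell, and their sum was 189 to 287 CPM in ligated and 602 to 609 CPM in control tissue. Pdgfra, with 21064 and 17150 counts in control and 1111 and 1378 in ligated segment 1, made up most of the control sum. Of 4 basal cell markers 2 rose and 2 fell, of 5 erythroid markers 2 fell, and of 5 epithelial markers 1 rose. Among all genes tested, 24.4% rose and 24.4% fell in segment 1. Their part in the results above was not tested either.

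Of the prolyl hydroxylases, Egln1, the main oxygen sensor of most cells, was not called in segment 1 (-0.12 ± 0.08, adjusted p = 0.26). Egln3, an enzyme of the same family that is itself induced by HIF (ENSMUSG00000035105, chromosome 12, 54178981 to 54203860), had 1.84 and 2.27 CPM in ligated segment 1, against 43.2 and 40.8 CPM in control segment 1. Its fall of 4.38 ± 0.70 (adjusted p = 0.0029) was the steepest of the 37 genes and measured -4.22 within batch 3017 and -3.90 within batch 3097 on the log2(CPM + 0.5) scale. Per kb, the control level of Egln3, 15.8 ± 0.637 CPM, stood above that of Egln1, 10.6 ± 0.429 CPM, and in ligated tissue far below it, at 0.772 ± 0.113 against 9.71 ± 0.821 CPM (SD, n = 2 each).

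The 5 other HIF targets gave 3 rises and no fall. Bnip3, a mitophagy receptor, rose by 0.55 ± 0.14 (adjusted p = 0.0087), Kdm3a, a histone H3 lysine 9 demethylase, by 0.40 ± 0.08 (adjusted p = 0.0025), and Ndrg1, a stress-response gene, by 0.48 ± 0.12 (adjusted p = 0.0070). Without the control or the ligated library of batch 3017, Bnip3 (0.095 and 0.076) and Ndrg1 (0.094 and 0.059) were not called. Adm, which encodes the vasodilator adrenomedullin, and Ankrd37 were under 3.2 CPM everywhere and not called (0.30 ± 0.28 and 0.06 ± 0.28, adjusted p = 0.42 and 0.88).

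**Figure D3:**
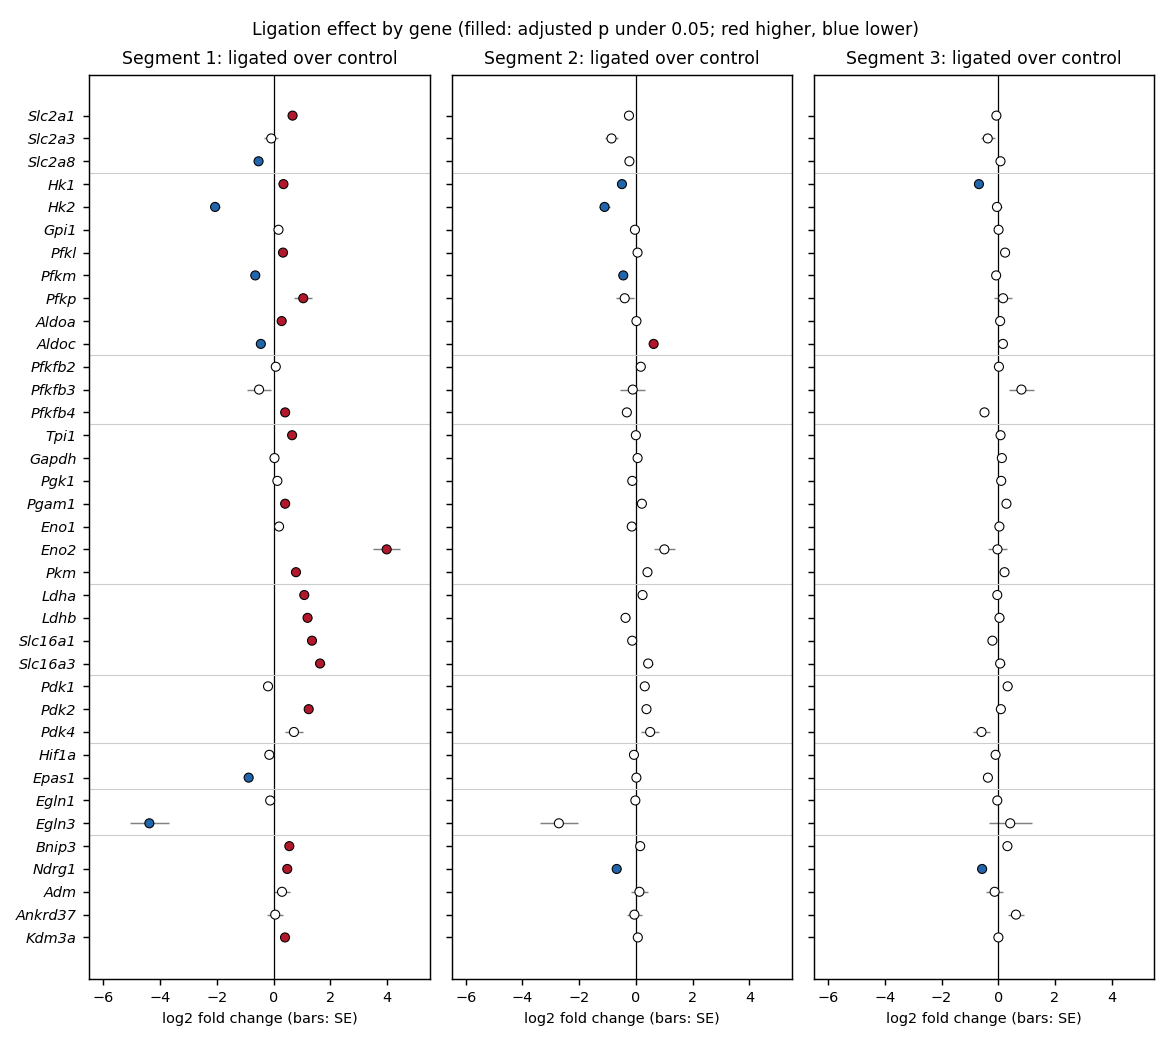
Log2 fold change of ligated over control for each of the 37 genes in segments 1, 2 and 3, with SE bars; filled points are called, red higher and blue lower. In segment 1, 18 genes rose and 6 fell; in segment 2, 1 rose and 4 fell; in segment 3, 2 fell.

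In segment 2, ligated against control tissue, 5 of the 37 genes (13.5%) were called, against 9.86% of all genes tested. They were 1 higher, against 2.87% of all genes, and 4 lower, against 7%. The median log2 fold change was -0.02 over the 37 genes and 0.00 over all genes. Pfkp changed sign without the control library that stood apart, at -0.40 with it and 0.25 without it, and was called in neither case. Hk2 had 99.6 and 75.2 CPM in ligated segment 2, against 260.2 and 128 CPM in control segment 2. It fell by 1.11 ± 0.19 (adjusted p = 0.012), and by 0.71 without the control library that stood apart (adjusted p = 0.0090). Ndrg1 (chromosome 15, 66929318 to 66969640) fell by 0.68 ± 0.12 (adjusted p = 0.0091; 0.032 without that library), at 151 ± 2.00 CPM in ligated and 241 ± 1.58 CPM in control tissue. Hk1, with 73.7 and 73.6 CPM in ligated segment 2, against 105 and 103 CPM in control segment 2, fell by 0.49 ± 0.10 (adjusted p = 0.020). Pfkm fell by 0.45 ± 0.10 (0.024), and Aldoc rose by 0.62 ± 0.12 (0.016). Without the library that stood apart the calls of Hk1, Pfkm and Aldoc were lost, at log2 fold changes of -0.48, -0.30 and 0.56. Fewer of all genes tested were called then too. None of the 5 calls held whichever library was left out. Those of Hk2 and Ndrg1 were lost without either ligated segment 2 library. Fitting only the libraries compared also lost both (adjusted p = 0.10 and 0.082), and dropping the batch block lost Hk2 (0.0665). The number called moved far with which segment 2 library was left out, among all genes tested as well as among the 37.

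Egln3 showed how much that library weighed. It had 3.68 and 1.22 CPM in ligated segment 2, against 27.9 and 6.41 CPM in control segment 2, where the higher control value came from the library that stood apart. The log2 fold change of -2.72 ± 0.66 was not called (adjusted p = 0.055) and was -1.84 without it (0.35). Slc2a3 and Pfkp were highest of all 12 libraries in the same library, at 87.9 and 28.8 CPM. The 4 lactate genes were not called in segment 2, with log2 fold changes of -0.37 to 0.43 and adjusted p of 0.13 to 0.49.

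In segment 3, ligated against control tissue, 2 of the 37 genes (5.41%) were called, against 1.72% of all genes tested, both lower, against 1.41%. The median log2 fold change was 0.04 over the 37 genes and -0.01 over all genes. Hk1 had 60.3 and 66.8 CPM in ligated segment 3, against 112 and 92.3 CPM in control segment 3, and fell by 0.68 ± 0.10 (adjusted p = 0.011). Ndrg1 fell by 0.57 ± 0.12 (adjusted p = 0.041), at 131 ± 3.93 CPM in ligated and 195 ± 31.5 CPM in control tissue. In neither gene did the groups overlap, but both calls were lost without the ligated or the control library of batch 3017 (adjusted p = 0.19 and 0.12 for Hk1, 0.51 and 0.51 for Ndrg1). The Ndrg1 call was lost in 9 of the 12 fits that each left out 1 library, and under library totals (0.058), a stricter filter (0.062), no batch block (0.060) and a fit of only the libraries compared (0.17); the last also lost the Hk1 call (0.11). Hk2 was not called here, with 111 and 90.4 CPM in ligated segment 3, against 123 and 86.9 CPM in control segment 3 (-0.05 ± 0.18, adjusted p = 0.93). Pfkfb3 held 41.0 CPM in the ligated library of batch 3017 and 17.3 CPM in that of batch 3097, against 16.9 and 14.6 CPM in controls, and was not called (0.81 ± 0.43, adjusted p = 0.41).

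With all libraries, Hk1 and Ndrg1 were thus called higher in segment 1 and lower in segments 2 and 3, within the limits given above. Subtracting the ligation effect of segment 2 from that of segment 1 gave 0.84 ± 0.15 for Hk1 and 1.16 ± 0.16 for Ndrg1 (adjusted p = 0.0051 and 0.0023). Subtracting that of segment 3 gave 1.03 ± 0.15 and 1.05 ± 0.16 (0.0011 and 0.0016). These differences share the segment 1 libraries. Sperm markers fell with both genes in segments 2 and 3, by the sums given above, and fell also in segment 1, where both genes rose. All 8 sperm markers were called lower in each of the 3 segments. Of the 6 germ cell forms of glycolytic genes, 5 were lower in segments 2 and 3, but 2 in segment 1. Of all genes tested, 24.4%, 7% and 1.41% were lower in segments 1, 2 and 3. Gapdhs, the sperm form of Gapdh, had 0.0891 ± 0.0572 CPM in ligated and 13.5 ± 3.29 CPM in control segment 2. The part of sperm RNA in the falls of Hk1 and Ndrg1 was not tested.

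**Figure D4:**
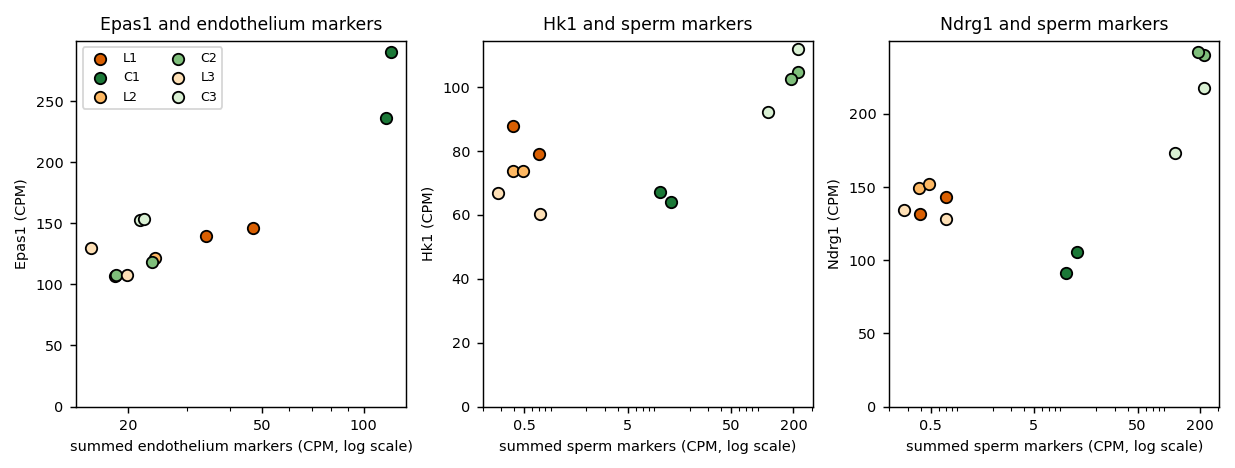
Level of Epas1 against summed endothelial markers, and of Hk1 and Ndrg1 against summed sperm markers, in CPM with log x axes; each point is a library, orange ligated and green control. Epas1 is highest in control segment 1, where endothelial markers sum to 117 to 121 CPM; Hk1 and Ndrg1 are highest in control segments 2 and 3, where sperm markers sum to 114 to 221 CPM, and lowest or near lowest in control segment 1, where they sum to 10.3 to 13.1 CPM.

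Over the 37 genes, the ligation effect in segment 1 differed from that in segment 2 in 14 (37.8%), against 18.5% of all genes tested. These were 11 higher, against 10.3%, and 3 lower, against 8.2%. Without the control segment 2 library that stood apart the same genes were called, with Pkm and Kdm3a added, and more of all genes tested were called too. The effect in segment 1 differed from that in segment 3 in 19 (51.4%), against 30.7%, 14 higher, against 16.1%, and 5 lower, against 14.7%. Slc16a1 differed by 1.49 ± 0.16 from segment 2 and 1.56 ± 0.16 from segment 3 (adjusted p = 9.4e-04 and 3.3e-04). Hk2 differed by -0.95 ± 0.26 and -2.01 ± 0.26 (0.037 and 0.0011), where the first lost its call in 10 of 12 fits that each left out 1 library and was -1.35 ± 0.15 without the library that stood apart. Between segments 2 and 3 the effect differed in 0 of 37 genes and in 0 of 19213 (0%) by edgeR. At an unadjusted p under 0.05 there were 6 of the 37 genes and 1917 of all genes, and DESeq2 called 1 of the 37 and 165 of all genes.

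Along the control duct, segment 1 against segment 2, 24 of the 37 genes (64.9%) were called, against 43.2% of all genes tested, 3 higher, against 21.1%, and 21 lower, against 22.1%. Segment 1 against segment 3 gave 27 (73.0%), against 51.2%, 6 higher, against 25%, and 21 lower, against 26.2%. These comparisons share control segment 1 with each other and with the ligation contrast, so their values are set side by side only. Without the control segment 2 library that stood apart, segment 1 against segment 2 gave the same genes with Pfkm added, and fewer of all genes tested. The segment 1 over segment 2 values without it were -1.87 ± 0.16 for Slc16a3, -1.74 ± 0.12 for Slc16a1, -1.22 ± 0.12 for Pdk2 and 1.47 ± 0.12 for Hk2, all called. For control segment 1 over control segments 2 and 3, Slc16a3 had log2 fold changes of -1.61 ± 0.18 and -1.95 ± 0.18, Slc16a1 of -1.60 ± 0.12 and -1.59 ± 0.12, and Pdk2 of -1.06 ± 0.12 and -1.46 ± 0.12, all called. Hk2 ran down the duct, at 418 and 369.9 CPM in control segment 1, 260.2 and 128 CPM in segment 2 and 123 and 86.9 CPM in segment 3. Its value for segment 1 over segment 2 was 1.08 ± 0.19 and over segment 3 1.93 ± 0.19 (adjusted p = 0.0023 and 9.5e-05). Egln3 was 41.99 ± 1.70, 17.2 ± 15.2 and 1.46 ± 1.35 CPM in control segments 1, 2 and 3, with 6.41 CPM in segment 2 outside the library that stood apart, and segment 1 over segment 3 was 5.10 ± 0.74 (adjusted p = 0.0018).

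Control segment 2 against control segment 3 had 0 of the 37 genes called by edgeR, against 1.79% of all 19213 genes tested. At an unadjusted p under 0.05 there were 14 of the 37 and 3904 of all genes, and DESeq2 called 8 and 1587. Between ligated segments few differences were called. Segment 1 against segment 2 gave 0 of 37, against 1.3% of all genes. At an unadjusted p under 0.05 there were 10 of the 37 and 2619 of all genes, and DESeq2 called 2 and 527. Segment 1 against segment 3 gave 4 (10.8%), against 5.8%, all lower, against 1.72%, namely Pfkl at -0.35 ± 0.07, Pfkfb2 at -0.61 ± 0.11, Pdk1 at -0.63 ± 0.14 and Kdm3a at -0.44 ± 0.08 (adjusted p = 0.030, 0.019, 0.033 and 0.017). None of the 4 kept its call whichever library was left out. Segment 2 against segment 3 gave 0 of 37, against 0% of all genes. At an unadjusted p under 0.05 there were 0 of the 37 and 1344 of all genes, and DESeq2 called 0 and 32. A p that misses the threshold does not show that levels were equal.

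**Figure D5:**
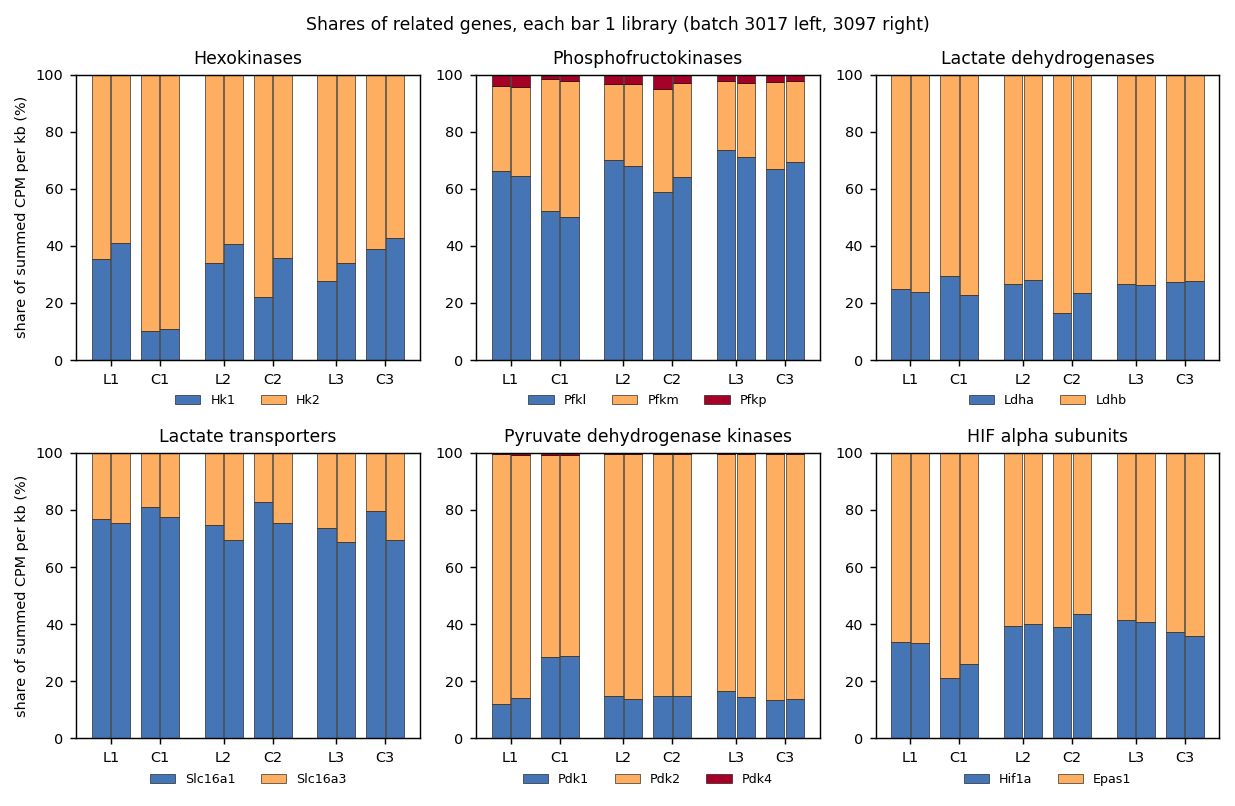
Share of each gene in the sum of its set, from CPM per kb of exon, with a bar for each library, ligated left of control and batch 3017 left of batch 3097. Hk1 takes 35.5% and 41.0% of the hexokinase pair in ligated segment 1 and 10.1% and 10.8% in control segment 1; Ldha takes 24.3% and 26.2% of the lactate dehydrogenase pair in these groups on average.

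Per kb, Aldoa had the highest level of the 37 genes in each group, at means of 162 to 267 CPM per kb, and Gapdh lay at 122 to 156 CPM per kb. Ldhb stood above Ldha in all 12 libraries, at 70.6% to 83.4% of their sum. Per kb, Hk2 exceeded Hk1 in all 12 libraries, at 57.4% to 89.9% of their sum, and its lowest share was in control segment 3 of batch 3097. In that library Hk1 had 3507 counts and Hk2 3302, so the order there rests on the exon lengths used, 8532 and 5969 bases. Such lengths join the exons of all transcripts of a gene, and which transcripts were present was not tested. Pdk2 made up 70.4% to 87.7% of the 3 kinases. Over the 12 libraries Hif1a ranged least of the 37 genes, from 73.1 to 95.2 CPM, a ratio of 1.30, and Egln3 most, from 0.50 to 43.2 CPM, a ratio of 86.3.

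Genes around the 37 were read from 6 further lists. In segment 1, ligated against control, 10 of 17 tested further HIF targets were called (58.8%), 6 higher (35.3%) and 4 lower (23.5%), against 48.7%, 24.4% and 24.4% of all genes tested. Car12, a carbonic anhydrase, had 92.9 ± 8.69 CPM in ligated and 8.39 ± 2.55 CPM in control tissue (3.49 ± 0.24), and Ak4, an adenylate kinase, 32.3 ± 0.294 and 6.31 ± 3.51 CPM (2.43 ± 0.24). P4ha2, a collagen prolyl hydroxylase subunit, had 2.65 ± 0.0728 CPM after ligation, against 399 ± 13.9 CPM (-7.30 ± 0.54), and Vegfa, the endothelial growth factor, 19.8 ± 9.81 CPM, against 179 ± 26.3 CPM (-3.22 ± 0.21). Of 10 HIF partners and regulators, 4 rose and 3 fell (70.0%), among them Arnt2, a partner subunit (1.52 ± 0.18), and Vhl, which directs HIF alpha to destruction (-0.47 ± 0.09).

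For pyruvate entry into mitochondria, 2 of 13 genes rose and 3 fell in segment 1, a share of 38.5% called, against 48.7% of all genes. Mpc2, of the mitochondrial pyruvate carrier, rose by 0.63 ± 0.11, and Dlat, the acetyltransferase of pyruvate dehydrogenase, fell by 0.97 ± 0.09, with 58.2 ± 5.23 CPM in ligated and 114 ± 0.422 CPM in control tissue. Of 13 genes of glycogen and the pentose phosphate pathway, 2 rose and 3 fell (38.5%), with Pygb, a glycogen phosphorylase, at 1.07 ± 0.12 and Tkt, transketolase, at 0.96 ± 0.13. In the rest of glycolysis and gluconeogenesis, 5 of 17 rose and 3 fell (47.1%). Pklr, liver-type pyruvate kinase, had 6.996 ± 0.235 CPM, against 0.950 ± 0.0373 CPM in controls (2.88 ± 0.39). Slc2a4, the insulin-regulated glucose transporter, had 13.3 ± 0.0118 CPM, against 5.57 ± 0.124 CPM (1.25 ± 0.22). Cited2, which limits HIF activity, rose by 0.49 ± 0.14, 0.89 ± 0.15 and 0.72 ± 0.14 in segments 1, 2 and 3 (adjusted p = 0.019, 0.0079 and 0.039). In segment 2 the further HIF targets gave 0 higher and 2 lower of 17, against 2.87% and 7% of all genes tested. The lower ones were Rora (-0.50 ± 0.13) and P4ha2 (-3.63 ± 0.47). P4ha2 had 4.29 ± 2.52 CPM in ligated and 55.7 ± 41.7 CPM in control tissue, where the library that stood apart held 85.2 CPM and the other 26.3 CPM. Without that library the values were -0.44 for Rora and -3.04 for P4ha2, and neither was called. Cited2 was still called, at 0.76.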

How the data were processed

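RNA was read from epididymis segments 1 to 3 of ligated and control WT mice, with 12 libraries in 6 groups. Per the labels' protocols, each library came from 500 ng of total RNA by a polyA, directional kit. The deposited values are raw read counts per gene, in 1 table per sequencing batch; per the submitters' processing notes the authors used Trim Galore 0.6.0, cutadapt, FastQC and STAR 2.7.0e on GRCm38. How reads were counted, with which annotation and whether by strand, is not given in the labels. Identifiers (55536) were matched to GENCODE vM21, which gave symbols, coordinates and union exon lengths. Of 2 identifiers named Aldoa, ENSMUSG00000030695, with the longer exons, was used; the other held 3 to 18 counts per library.

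Genes were filtered with filterByExpr (minimum count 10), scaled by TMM and fitted with edgeR 4.0.16 (glmQLFit, robust, and glmQLFTest; R 4.3.3, limma 3.58.1) on group plus batch over 12 libraries, with 5 residual degrees of freedom. P-values were adjusted by Benjamini-Hochberg over 19213 genes, with a threshold of 0.05. An SE is the log2 fold change divided by the root of its F statistic, and within-batch ratios use CPM + 0.5. Members and gene lists were chosen with earlier results of these data known. All members could be named, with per-library values for those called at 2-fold and 5 CPM or more and for a set of others; of each further list, up to 2 genes per direction at 5 CPM or more. Eno2, below that level, is described for the size of its change. Column names give group and batch but no replicate number of the labels, so batch was the block, as the design text gives it; deviations of libraries of 1 batch correlated at 0.0832 to 0.55 between groups. Alternatives were DESeq2 1.42.0, DESeq2 size factors, library totals, no filter, a minimum count of 50, no block, only the libraries compared, and leaving out each library. Since PCR copies were not marked, count floors cover counting error only.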

Additional observations from a re-analysis of the deposited data

Results flagged for a closer look

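The ligation effect in segment 1 was tested against that in segment 2 for each gene by an interaction term in edgeR, and 14 of the 37 genes passed at an adjusted p under 0.05. The log2 fold change, ligated over control, was greater in segment 1 than in segment 2 for Slc2a1 by 0.92, Hk1 by 0.84, Pfkfb4 by 0.73, Tpi1 by 0.66, Eno2 by 2.98, Ldha by 0.85, Ldhb by 1.56, Slc16a1 by 1.49, Slc16a3 by 1.21, Pdk2 by 0.87 and Ndrg1 by 1.16. It was lower in segment 1, with a difference of -0.95 for Hk2, -1.07 for Aldoc and -0.89 for Epas1. Of the 14 calls, 8 held whichever library was left out and 7 under every setting tried; Hk2 kept its call in 2 of 12 such fits. All 14 held without the control segment 2 library of batch 3017, which stood apart.

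The same term against segment 3 passed for 19 genes. The log2 fold change was greater in segment 1 than in segment 3 for Slc2a1 by 0.74, Hk1 by 1.03, Pfkfb4 by 0.90, Tpi1 by 0.57, Eno2 by 4.02, Pkm by 0.57, Ldha by 1.12, Ldhb by 1.16, Slc16a1 by 1.56, Slc16a3 by 1.57, Pdk2 by 1.15, Pdk4 by 1.31, Ndrg1 by 1.05 and Kdm3a by 0.40. It was lower in segment 1, with a difference of -0.60 for Slc2a8, -2.01 for Hk2, -0.57 for Pfkm, -0.61 for Aldoc and -4.80 for Egln3. Both sets of differences use the same segment 1 libraries. Of the 19 calls, 13 held whichever of the 12 libraries was left out and 11 held under every setting tried. Pkm kept its call in 4 of 12 such fits, Kdm3a in 5, Aldoc in 6, Pfkm in 8 and Egln3 in 10. Pdk4 kept it in 3 of 12 (adjusted p up to 0.18) and lost it under DESeq2 (0.10), DESeq2 size factors (0.051), no filter (0.079), no block (0.064) and only the libraries compared (0.057); it had 1.24 and 2.04 CPM in ligated and 0.951 and 1.01 CPM in control segment 1, and 1.02 and 0.91 CPM in ligated and 1.48 and 1.45 CPM in control segment 3.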

How the results depend on the processing

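For the 37 genes in the 3 comparisons of ligated with control tissue, 2109 values were recomputed under 19 settings. Of these, 69 lost the call and 29 gained one; 61 changed sign, none of them called before or after, and 1950 kept both sign and side of the threshold. The counts that follow are of the 37 genes called, and the number called among all genes moved between settings too. For segment 2, the leave-out fits with the fewest and the most calls among the 37 also had the fewest and the most among all genes. Leaving out 1 library at a time gave 16 to 24 calls for ligated against control tissue in segment 1 (24 with all libraries), 0 to 15 in segment 2 (5) and 0 to 3 in segment 3 (2). It gave 0 to 9 for control segment 2 against 3 (0), 0 to 2 for ligated segment 1 against 2 (0), 0 to 7 for ligated segment 1 against 3 (4), and 0 to 2 for the difference of the effect between segments 2 and 3 (0). For the effect in segment 1 minus segment 2 it gave 10 to 17 (14), and minus segment 3, 14 to 22 (19). With no batch block, the pairing of libraries by batch was dropped, and the calls were 22, 3 and 1 in segments 1, 2 and 3, 25 for control segment 1 against 2 and 25 against 3, and 12 and 14 for the differences of segment 1 from segments 2 and 3. Among all genes the calls in segments 1, 2 and 3 were then 7894, 1162 and 236, against 9363, 1895 and 331 with the block. Fitting only the libraries compared, with fewer samples to estimate the spread, gave 1 call in segment 2 and 0 in segment 3. Of all genes it called 149 of 17335 and 211 of 17449 there. It gave 1 for control segment 2 against 3, and 5, 7 and 3 for ligated segment 1 against 2, 1 against 3 and 2 against 3. Among all genes those ligated comparisons gave 1194, 1542 and 1080 in such fits, against 249, 1115 and 0 with all libraries. DESeq2 gave 8 in segment 2, 8 for control segment 2 against 3, 2 and 10 for ligated segment 1 against 2 and 3, and 1 for the difference between segments 2 and 3. Library totals and the stricter filter each gave 1 in segment 3. The cause of these changes was not tested. Genes at a few CPM, such as Adm and Pdk4, have little depth behind them.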
